A study of Mus musculus with 9 samples.

Results

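The 2 arrays described here hold RNA of TAMH cells 6 h and 2 h after the start of dosing with AMAP. They were taken by the labels of dose and time from the 9 arrays of the series, and each of the 12393 genes named by a probe set with a single gene symbol was described by the AMAP 6 h value minus the AMAP 2 h value. AMAP is N-acetyl-meta-aminophenol, the meta regioisomer of acetaminophen (APAP), and the series title calls it the less hepatotoxic of the pair. TAMH is a mouse hepatocyte line derived from animals carrying a TGF-alpha transgene, and the labels give its strain as C57BL/6 and its tissue as liver.

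The study placed confluent cells in 2 mM AMAP, 2 mM APAP or control medium for 2, 6 or 24 h, and its design text calls it preliminary. The groups used here were AMAP 6 h and AMAP 2 h, both at 2 mM, and CONTROL 6 h and CONTROL 2 h, both in control medium without drug, which served as the background of culture time. Each group was grown in 2 dishes and measured on 1 Affymetrix mouse array, so there was no replicate array, no spread between replicates and no test of any difference. The number of arrays limits the precision of every value below, and a second look at a gene came only from its other probe sets on the same arrays.

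Immediate-early genes such as Fos, Jun, Egr1 and Atf3 are switched on within minutes by growth factor and stress kinases without new protein synthesis, and their short-lived mRNAs are normally lost within hours as phosphatases and mRNA decay factors shut the signal down. The p53 protein, stabilised by damage, activates genes that hold the cell cycle, such as the inhibitor Cdkn1a, and also Mdm2, which returns p53 to a low level. In the integrated stress response, translation of ATF4 turns on CHOP (Ddit3), amino acid transporters and the phosphatase subunit Ppp1r15a, which ends the response. Mitotic genes are transcribed late in the cell cycle, and their mRNAs are low in cells early in the cycle.

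The values are RMA expression values on the log2 scale, so a difference of 1 is 2-fold, and they were not compared between probe sets as amounts of mRNA. The 5 hepatocyte markers on the array were all expressed, with albumin (Alb) at 13.14 in AMAP 6 h, 13.09 in AMAP 2 h, 13.03 in CONTROL 6 h and 13.28 in CONTROL 2 h. All 6 endothelial and all 6 stellate cell markers lay below the median of all values (5.66) on these arrays, as did 5 of 6 macrophage markers, including Ptprc. The exception was Cd14, at 10.16 in AMAP 6 h, 9.96 in AMAP 2 h, 10.36 in CONTROL 6 h and 10.23 in CONTROL 2 h. Of 4 cholangiocyte markers on the array, 3 were expressed and 1 lay below that median on all 4 arrays. The keratins Krt7 and Krt19 were above it on all 4, Krt7 at 9.54 in AMAP 6 h, 9.12 in AMAP 2 h, 8.98 in CONTROL 6 h and 8.75 in CONTROL 2 h. The dap spike-in, a bacterial RNA added during labelling, had middle minus 3′ values of -0.437 in AMAP 6 h, -0.492 in AMAP 2 h, -0.508 in CONTROL 6 h and -0.597 in CONTROL 2 h. The 4 arrays were alike in this measure of labelling, which does not measure the length of the cells' own RNA.

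In AMAP 6 h against AMAP 2 h the largest differences ran downward and sat in stress and signalling genes. Of 6799 genes above the filter on low values in at least 1 of the AMAP arrays, 58 (0.853%) were at least 2-fold lower at 6 h and 48 (0.706%) at least 2-fold higher. The lower genes held 7 immediate-early factors, 10 p53 targets and 6 genes of the ATF4 and CHOP response, and 25 of the 58 belonged to none of the 23 gene lists. The higher genes held 12 mitosis genes, and 32 of the 48 belonged to no list. In bulk RNA, fewer cells of a kind and less of an mRNA per cell cannot be told apart.

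Untreated cells also differed over the same hours, and genes 2-fold apart in both AMAP and control mostly ran in opposite directions. In control medium 34 of 6850 genes (0.496%) were at least 2-fold higher at 6 h and 33 (0.482%) at least 2-fold lower. Of the 58 genes lower in AMAP, 1 (Pmaip1) was also 2-fold lower in control and 9 were 2-fold higher in control, among them Junb, Csf2, Ccn1 and Plaur, while 44 stayed within 1.5-fold. None of the 48 genes higher in AMAP was 2-fold higher in control, where 0.496% of genes were. In control 2 of the 48 were 2-fold lower and 12 at least 1.5-fold lower. The typical gene moved little: over 6700 expressed genes, the median difference was -0.01 in AMAP, with 46.4% higher and 50.8% lower, and 0.07 in control, with 60.1% higher and 37.5% lower. Across these genes the AMAP difference and the control difference had a Pearson r of -0.246 and a Spearman rho of -0.230. The genes are not independent, and their arrays may have been normalised together.

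**Figure D1:**
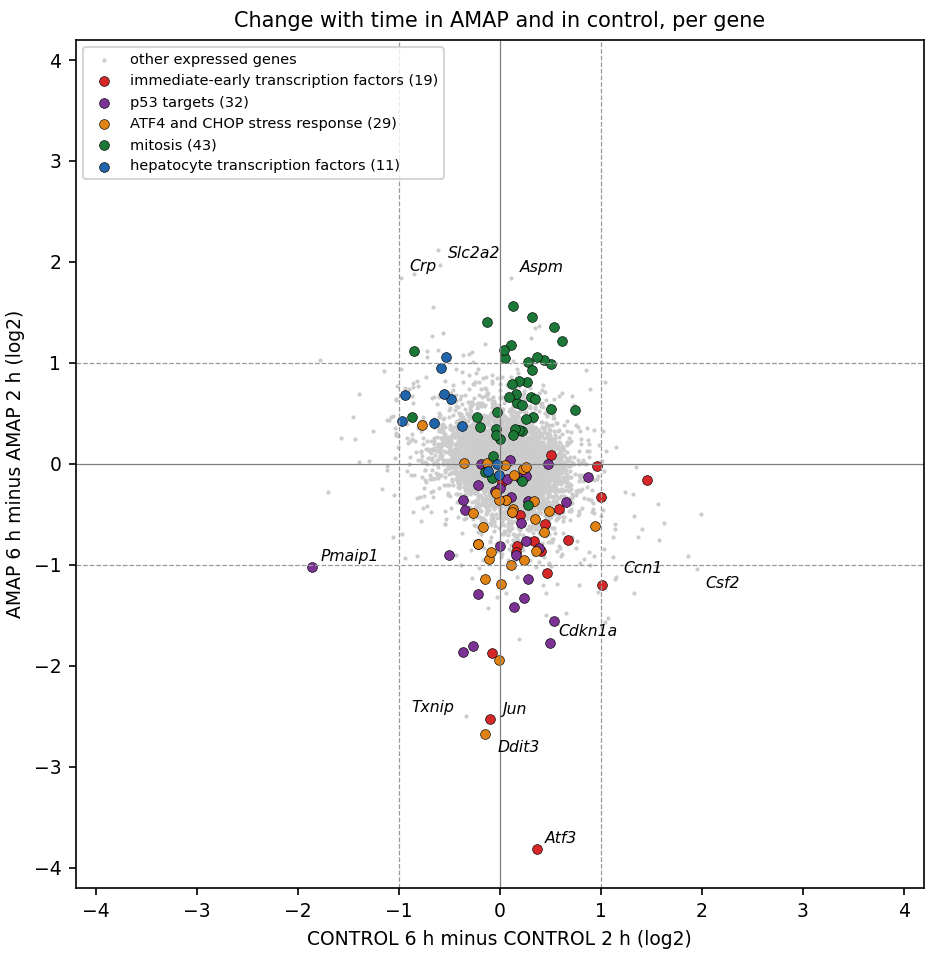
Each point is 1 of the 6700 expressed genes, with CONTROL 6 h minus CONTROL 2 h on the horizontal axis and AMAP 6 h minus AMAP 2 h on the vertical axis, both in log2, and dashed lines at 2-fold. Coloured points are members of 5 gene lists with their number in brackets: immediate-early factors, p53 targets and ATF4 and CHOP genes lie mostly below 0 on the AMAP axis, and mitosis genes lie mostly above it, with Atf3 lowest at -3.82.

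Genes lower at 6 h had mostly been above untreated cells at 2 h. Of the 58, 52 were at least 1.5-fold above CONTROL 2 h in AMAP 2 h, whereas 36 were within 1.5-fold of CONTROL 6 h in AMAP 6 h, 20 were at least 1.5-fold below it and 2, Pmaip1 and Cxcl10, were still above it. The median of AMAP minus CONTROL over these genes was -0.48 at 6 h and 1.32 at 2 h. Of the 48 higher genes, 30 had been at least 1.5-fold below CONTROL 2 h, and none was so at 6 h, when 21 were within 1.5-fold of CONTROL 6 h and 27 were above it. These same-time differences share the AMAP arrays with the difference over time and are given beside it as levels. Over all expressed genes, 91.4% were within 1.5-fold of CONTROL 6 h in AMAP 6 h, 4.07% were 1.5-fold or more above it and 4.48% below it. In AMAP 2 h, 3.45% were 1.5-fold or more above CONTROL 2 h and 2.64% below it.

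Immediate-early transcription factors were lower at 6 h almost throughout. Of 19 expressed members, 18 were lower and 1, Myc, higher, 5 of them by 2-fold or more where 0.687% of expressed genes were, with a median difference of -0.75. In control 17 of 19 were higher at 6 h, with a median of 0.41. AMAP minus CONTROL had a median of -0.21 at 6 h and 0.92 at 2 h. In AMAP 6 h 16 of the 19 were within 1.5-fold of CONTROL 6 h, where 91.4% of expressed genes were.

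Atf3, a stress-induced bZIP repressor, gave the largest difference of any expressed gene. It stood at 6.78 in AMAP 6 h, 10.59 in AMAP 2 h, 7.03 in CONTROL 6 h and 6.66 in CONTROL 2 h, a log2 difference of -3.82 in AMAP and 0.37 in control. Only AMAP 2 h stood out, and AMAP 6 h lay between the control arrays. The gene had 1 probe set above the filter, so no second probe set bears on it.

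Jun and Fos encode partners of the AP-1 factor. Jun had 7.90 in AMAP 6 h, 10.42 in AMAP 2 h, 8.0 in CONTROL 6 h and 8.09 in CONTROL 2 h, a difference of -2.52, and its second probe set gave -1.85. Fos was low elsewhere and reached the filter in AMAP 2 h alone, with 4.97 in AMAP 6 h, 6.95 in AMAP 2 h and 5.26 in both CONTROL 6 h and CONTROL 2 h. Its difference of -1.98 therefore starts from a level that the other arrays did not share. Egr1, a zinc finger factor induced through serum response elements, had 9.26 in AMAP 6 h, 11.14 in AMAP 2 h, 9.59 in CONTROL 6 h and 9.67 in CONTROL 2 h. As with Jun, the control values were close to each other and AMAP 6 h lay just below them.

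Junb and Ier2 differed in that control cells moved the other way. Junb, another AP-1 subunit, had 7.87 in AMAP 6 h, 9.07 in AMAP 2 h, 8.17 in CONTROL 6 h and 7.15 in CONTROL 2 h, so it was 1.20 lower over time in AMAP and 1.01 higher in control. Ier2 had 7.57 in AMAP 6 h, 8.65 in AMAP 2 h, 8.23 in CONTROL 6 h and 7.76 in CONTROL 2 h. In both genes AMAP 6 h was below CONTROL 6 h, by 0.30 in Junb and 0.67 in Ier2, and AMAP 2 h was the highest array.

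The genes that end MAP kinase signalling followed less uniformly. Of 18 expressed members of the feedback and mRNA decay list, 13 were lower and 5 higher in AMAP, with a median of -0.28, against 11 higher and 6 lower in control, with a median of 0.23. Dusp1, the phosphatase that inactivates p38, JNK and ERK, was the 1 member past 2-fold, at 8.80 in AMAP 6 h, 10.11 in AMAP 2 h, 8.89 in CONTROL 6 h and 8.92 in CONTROL 2 h. Dusp10, a p38 and JNK phosphatase, was 0.92 lower over time in AMAP and 0.44 higher in control. Zfp36, which binds AU-rich mRNAs and speeds their decay, differed by -0.61 in AMAP and -0.09 in control. Sgk1, a kinase induced by hormones and stress, went the other way, at 10.82 in AMAP 6 h, 10.08 in AMAP 2 h, 10.10 in CONTROL 6 h and 10.23 in CONTROL 2 h.

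**Figure D2:**
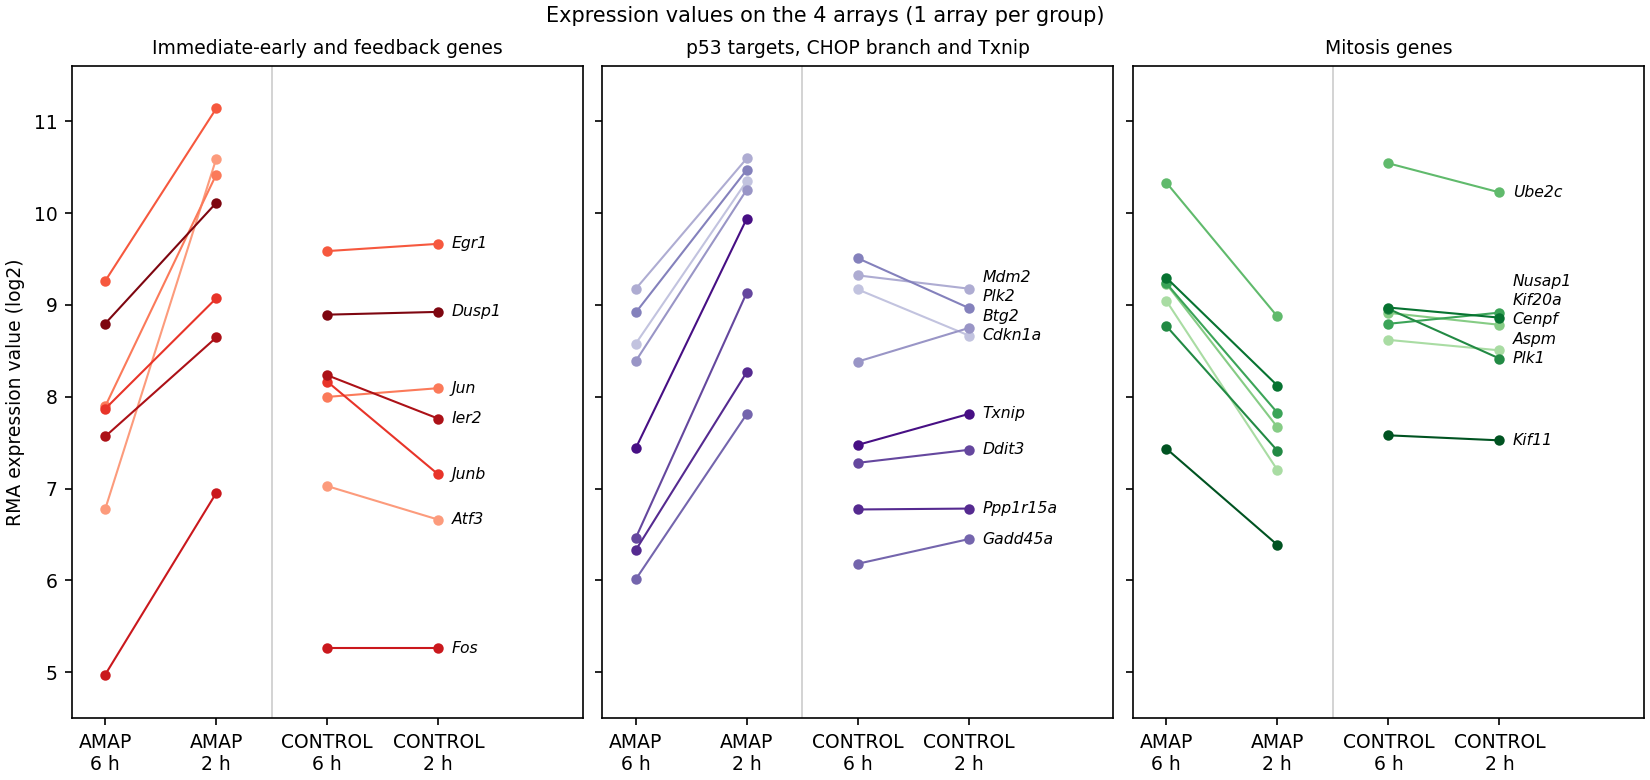
RMA expression values (log2, vertical axis) on the 4 arrays, 1 point per gene and array, with lines joining the values of a gene within AMAP and within control. Immediate-early and feedback genes and the stress genes were highest in AMAP 2 h, and mitosis genes were lowest in AMAP 2 h. In AMAP 6 h some genes lay near the control arrays, as Jun at 7.90 against 8.0 in CONTROL 6 h. Others lay further below, as Ddit3 at 6.46 against 7.28 and Ier2 at 7.57 against 8.23 in CONTROL 6 h.

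Targets of p53 were lower at 6 h in 30 of 32 expressed members, with Xpc and Pml the exceptions. By 2-fold or more 9 were lower, and by 1.5-fold or more 15, where 3.15% of expressed genes were, and the list median was -0.53. In control 19 were higher and 11 lower, with a median of 0.12. AMAP minus CONTROL had a median of -0.14 at 6 h and 0.66 at 2 h. At 2 h 17 of the 32 were at least 1.5-fold above control, where 3.45% of expressed genes were. At 6 h 2 were, Pmaip1 and Ddit4, where 4.07% of expressed genes were.

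Cdkn1a encodes p21, the inhibitor of cyclin-dependent kinases. It had 8.58 in AMAP 6 h, 10.35 in AMAP 2 h, 9.17 in CONTROL 6 h and 8.67 in CONTROL 2 h. Its 2 probe sets differed by -1.77 and -1.94 over time in AMAP, and control ran the other way by 0.50. Mdm2, the ubiquitin ligase of p53, had 9.18 in AMAP 6 h, 10.60 in AMAP 2 h, 9.32 in CONTROL 6 h and 9.18 in CONTROL 2 h, and its probe sets gave -1.42 and -1.67. At 6 h both genes stood at the lower edge of the control range or just below it in AMAP, and only AMAP 2 h was clear of it.

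Btg2, an antiproliferative cofactor of mRNA deadenylation, had 8.39 in AMAP 6 h, 10.26 in AMAP 2 h, 8.38 in CONTROL 6 h and 8.75 in CONTROL 2 h, and its second probe set differed by -2.43. Gadd45a, which slows the cell cycle at G2, had 6.01 in AMAP 6 h, 7.81 in AMAP 2 h, 6.18 in CONTROL 6 h and 6.45 in CONTROL 2 h. Plk2, a stress-induced polo-like kinase, had 8.92 in AMAP 6 h, 10.47 in AMAP 2 h, 9.51 in CONTROL 6 h and 8.97 in CONTROL 2 h. All 3 were highest in AMAP 2 h by more than any other pair of arrays differed. Trp53inp1, a p53-induced cofactor in stress and autophagy, was 1.29 lower over time in AMAP and 0.22 lower in control, and Slc19a2, a thiamine transporter, was 1.32 lower in AMAP and 0.24 higher in control.

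Pmaip1 (Noxa), a BH3-only inducer of apoptosis, did not share this return. It had 8.93 in AMAP 6 h, 9.95 in AMAP 2 h, 7.09 in CONTROL 6 h and 8.95 in CONTROL 2 h. CONTROL 6 h was the array that stood apart, so the gene was 1.02 lower over time in AMAP but 1.83 above control at 6 h, against 0.99 above at 2 h. It was read by 1 probe set. Bbc3 (Puma), another BH3-only gene, was at 6.39 in AMAP 6 h, 7.29 in AMAP 2 h, 6.37 in CONTROL 6 h and 6.20 in CONTROL 2 h. In the BCL2 family as a whole 5 of 10 expressed members were higher and 5 lower in AMAP.

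The ATF4 and CHOP response was lower at 6 h in 26 of 29 expressed members, where 50.8% of expressed genes were, with a median of -0.48. By 2-fold 5 were lower, where 0.687% of expressed genes were, and by 1.5-fold 13, where 3.15% were. Slc38a2, Herpud1 and Xpot were the 3 members not lower. In control 16 were higher and 13 lower, with a median of 0.05. In AMAP 6 h 7 members, among them Atf4, Ddit3, Trib3 and Mthfd2, lay at least 1.5-fold below CONTROL 6 h on the probe set used, where 4.48% of expressed genes did, and the median of AMAP minus CONTROL was -0.39 at 6 h and 0.39 at 2 h.

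Ddit3 encodes CHOP, the transcription factor of the late stress response. It had 6.46 in AMAP 6 h, 9.14 in AMAP 2 h, 7.28 in CONTROL 6 h and 7.42 in CONTROL 2 h, a difference of -2.67 in AMAP and -0.14 in control. It was the highest of the 4 arrays at 2 h and the lowest at 6 h in AMAP. Ddit3 was read by 1 probe set. Ppp1r15a (GADD34), which directs a phosphatase to eIF2-alpha, had 6.33 in AMAP 6 h, 8.27 in AMAP 2 h, 6.77 in CONTROL 6 h and 6.78 in CONTROL 2 h. Atf4, the transcription factor that opens the response, had 10.06 in AMAP 6 h, 11.06 in AMAP 2 h, 10.73 in CONTROL 6 h and 10.61 in CONTROL 2 h. Trib3, a pseudokinase induced by CHOP, had 6.18 in AMAP 6 h, 7.31 in AMAP 2 h, 6.88 in CONTROL 6 h and 7.02 in CONTROL 2 h. On the probe sets used, AMAP 2 h was the highest array and AMAP 6 h the lowest in these 4 genes. The other probe set of Atf4 above the filter had 7.33 in AMAP 6 h, 7.96 in AMAP 2 h, 6.41 in CONTROL 6 h and 7.33 in CONTROL 2 h. On it AMAP 6 h was 0.91 above CONTROL 6 h, not below, so the place of Atf4 against control at 6 h depends on the probe set. Over all its probe sets, counting a probe set below the filter, the AMAP time difference was -0.64 where the probe set used gave -1.0. The other probe set of Trib3 had 5.10 in AMAP 6 h, 6.16 in AMAP 2 h, 5.15 in CONTROL 6 h and 5.63 in CONTROL 2 h. On it AMAP minus CONTROL was -0.05 at 6 h, so the distance of Trib3 below control also depends on the probe set.

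Slc1a4, a neutral amino acid transporter, was 1.19 lower over time in AMAP and 0.01 higher in control, and its 3 probe sets lay between -1.19 and -0.79. Mthfd2, a mitochondrial folate enzyme, was 0.96 lower in AMAP and 0.24 higher in control. The 10 expressed aminoacyl-tRNA synthetases, which charge tRNA and include several ATF4 targets, differed by less but in one direction: all 10 were lower in AMAP, with a median of -0.22, and all 10 higher in control, with a median of 0.31. Cars had the largest difference, -0.69, at 8.20 in AMAP 6 h, 8.89 in AMAP 2 h, 8.96 in CONTROL 6 h and 8.42 in CONTROL 2 h. The mean of its probe sets, counting a probe set below the filter, gave -0.35. Aars had 8.59 in AMAP 6 h, 9.08 in AMAP 2 h, 9.42 in CONTROL 6 h and 9.02 in CONTROL 2 h, so in both genes the 2 h arrays were nearer to each other than the 6 h arrays.

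Promoter sequences of 6 of these genes are shown because they hold an exact match to a motif. It is that of ATF4 with C/EBP partners or that of the ATF and CREB family. The sequences are from RefSeq (GRCm38.p6) and run 5′ to 3′ on the strand of the gene from 250 bases before to 50 after its start, and the capitals mark the match. Both strands were searched. The first pair carries TGATGCAA, read here from the other strand as TTGCATCA, and the other 4 carry TGACGTCA, which is its own reverse complement.
Atf3 (chr1:191183284-191183583, minus strand): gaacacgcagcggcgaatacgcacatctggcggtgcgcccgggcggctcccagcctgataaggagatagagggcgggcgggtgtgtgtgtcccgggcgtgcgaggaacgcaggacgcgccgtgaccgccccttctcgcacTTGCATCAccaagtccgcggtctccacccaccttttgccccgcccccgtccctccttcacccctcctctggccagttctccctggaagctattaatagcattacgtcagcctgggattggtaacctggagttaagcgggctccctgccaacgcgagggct
Slc1a4 (chr11:20332664-20332963, minus strand): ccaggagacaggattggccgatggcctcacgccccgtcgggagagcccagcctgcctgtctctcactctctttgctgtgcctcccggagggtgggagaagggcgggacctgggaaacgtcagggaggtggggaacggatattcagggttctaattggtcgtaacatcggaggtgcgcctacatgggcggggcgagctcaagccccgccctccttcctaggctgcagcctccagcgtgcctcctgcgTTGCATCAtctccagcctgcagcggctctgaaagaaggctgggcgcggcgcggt
Ppp1r15a (chr7:45526219-45526518, minus strand): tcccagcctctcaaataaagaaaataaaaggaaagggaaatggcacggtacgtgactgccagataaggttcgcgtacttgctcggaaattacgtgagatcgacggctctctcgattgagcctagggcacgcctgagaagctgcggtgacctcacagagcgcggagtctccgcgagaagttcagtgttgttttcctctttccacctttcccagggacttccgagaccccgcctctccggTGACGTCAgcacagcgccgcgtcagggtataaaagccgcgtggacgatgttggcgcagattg
Dusp1 (chr17:26508423-26508722, minus strand): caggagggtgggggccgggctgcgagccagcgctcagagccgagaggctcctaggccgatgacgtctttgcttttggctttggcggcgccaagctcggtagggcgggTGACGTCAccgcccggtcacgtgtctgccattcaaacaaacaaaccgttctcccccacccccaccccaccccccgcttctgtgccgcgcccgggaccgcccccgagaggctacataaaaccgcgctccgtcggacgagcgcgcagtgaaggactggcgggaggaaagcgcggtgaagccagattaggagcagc
Btg2 (chr1:134079106-134079405, minus strand): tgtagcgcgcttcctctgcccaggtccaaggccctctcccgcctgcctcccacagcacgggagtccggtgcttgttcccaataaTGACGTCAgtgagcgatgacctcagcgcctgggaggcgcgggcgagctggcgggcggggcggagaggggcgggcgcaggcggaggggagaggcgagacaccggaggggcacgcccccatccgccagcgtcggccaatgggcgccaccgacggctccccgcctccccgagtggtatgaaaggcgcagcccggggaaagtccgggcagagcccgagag
Plk2 (chr13:110394794-110395093, plus strand): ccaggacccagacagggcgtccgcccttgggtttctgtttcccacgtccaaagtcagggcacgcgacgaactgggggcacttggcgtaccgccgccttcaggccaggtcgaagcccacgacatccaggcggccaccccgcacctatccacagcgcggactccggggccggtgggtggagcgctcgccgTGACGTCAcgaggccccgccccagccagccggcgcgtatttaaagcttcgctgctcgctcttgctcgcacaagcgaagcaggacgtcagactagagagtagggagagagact

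The match began 110 bases before the start in Atf3, 4 in Slc1a4, 12 in Ppp1r15a, 143 in Dusp1, 166 in Btg2 and 62 in Plk2. TGATGCAA occurred in 0.895% of 32851 promoters of the same length and in 0.849% of the 5534 expressed genes with a promoter in the table. It occurred in 4 of 7 tRNA synthetase genes with a promoter (Aars, Iars, Tars and Yars), in 5 of 26 genes of the ATF4 and CHOP list, in 5 of 46 genes 2-fold lower in AMAP and in 0 of 40 genes 2-fold higher. TGACGTCA occurred in 3.78% of expressed genes, in 6 of 46 of the 2-fold lower genes and in 4 of 40 of the 2-fold higher genes, so it was above the share of expressed genes in both directions. Besides these, 4 motifs were searched: AP-1 (TGACTCA), E2F (TTTGGCGC), CArG and NF-kB. AP-1 occurred in 4.41% of expressed genes, in 0 of 13 immediate-early genes, in 4 of 46 lower genes and in 3 of 40 higher genes. E2F occurred in 1.32% of expressed genes, in 7 of 35 DNA replication genes and in 1 gene each of the lower and higher genes. NF-kB occurred in 0.325% of expressed genes, in 0 of 46 lower and 3 of 40 higher genes, and CArG in 0.0181% of expressed genes and in no gene of either set. A match of letters is not a measured binding site, and no test was made of these counts.

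Txnip, an inhibitor of thioredoxin and of glucose uptake that is induced by high glucose, was the largest difference outside the stress transcription lists. It had 7.44 in AMAP 6 h, 9.94 in AMAP 2 h, 7.48 in CONTROL 6 h and 7.81 in CONTROL 2 h, and its 2 probe sets gave -2.50 and -2.71. The NRF2 and glutathione list to which it was assigned gave 7 higher and 22 lower of 29, with a median of -0.15 in AMAP and -0.04 in control, and no other expressed member past 2-fold. The metallothioneins Mt1 and Mt2, which bind zinc and copper, were 0.47 and 0.84 lower over time in AMAP and 0.92 and 0.75 higher in control. As the mean of its probe sets, counting a probe set below the filter, Mt1 gave -0.21 in AMAP and 0.40 in control.

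Secreted factors gave a mixed list in which a few members carried the difference. Of 23 expressed cytokine, chemokine and NF-kB feedback genes, 11 were higher and 12 lower in AMAP, with a median of -0.04, and 16 were higher in control, with a median of 0.24. Lif, an IL-6 family cytokine, had 6.89 in AMAP 6 h, 8.36 in AMAP 2 h, 6.78 in CONTROL 6 h and 6.12 in CONTROL 2 h, and both probe sets were lower, by 1.47 and 1.15. Csf2, which encodes GM-CSF, had 8.14 in AMAP 6 h, 9.18 in AMAP 2 h, 8.17 in CONTROL 6 h and 6.22 in CONTROL 2 h. Its AMAP 6 h and CONTROL 6 h values were alike, and control alone was 1.95 higher at 6 h. Cxcl10, an interferon-induced chemokine, had 6.68 in AMAP 6 h, 7.81 in AMAP 2 h, 5.65 in CONTROL 6 h and 5.93 in CONTROL 2 h, and so stayed 1.03 above control at 6 h.

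Matrix and TGF-beta response genes differed over time mainly in control. In AMAP 13 of 20 were lower and 6 higher, with a median of -0.07, whereas in control 18 of 20 were higher, with a median of 0.37. Lower in AMAP and higher in control were 12 of 20, against 34.6% of expressed genes. AMAP minus CONTROL had a median of -0.23 at 6 h and 0.63 at 2 h. Ccn1, a matricellular YAP and serum response target, had 9.76 in AMAP 6 h, 10.90 in AMAP 2 h, 10.25 in CONTROL 6 h and 9.11 in CONTROL 2 h. Ccn2 had 9.98 in AMAP 6 h, 10.90 in AMAP 2 h, 10.78 in CONTROL 6 h and 9.65 in CONTROL 2 h. Plaur, the urokinase receptor, was 1.12 lower over time in AMAP and 1.15 higher in control. In these genes CONTROL 2 h was the lowest array, and AMAP 2 h and CONTROL 6 h were both above it. Hbegf, a ligand of the EGF receptor, behaved likewise at 8.47 in AMAP 6 h, 9.45 in AMAP 2 h, 8.45 in CONTROL 6 h and 7.66 in CONTROL 2 h, while the 5 expressed members of its receptor and ligand list had medians of 0.04 in AMAP and 0.17 in control.

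Mitosis genes were the main group that was higher at 6 h in AMAP. Of 43 expressed members 39 were higher and 4 lower, 12 by 2-fold or more and 22 by 1.5-fold or more, where 0.567% and 2.64% of expressed genes were, with a median of 0.61. In control 31 were higher and 11 lower, with a median of 0.17 and none 2-fold higher, where 0.493% of expressed genes were 2-fold higher in control and 0.448% lower. AMAP minus CONTROL had a median of -0.02 at 6 h and -0.46 at 2 h. At 2 h 16 of 43 were at least 1.5-fold below control, where 2.64% of expressed genes were. At 6 h 39 of 43 were within 1.5-fold of control, close to the 91.4% of expressed genes that were.

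Cenpf, a kinetochore protein, had 9.23 in AMAP 6 h, 7.67 in AMAP 2 h, 8.91 in CONTROL 6 h and 8.78 in CONTROL 2 h. Its differences of 1.56 in AMAP and 0.13 in control were 1.12 and 0.45 as the mean of its probe sets, counting a probe set below the filter. Ube2c, the ubiquitin-conjugating enzyme of the anaphase-promoting complex, had 10.33 in AMAP 6 h, 8.88 in AMAP 2 h, 10.54 in CONTROL 6 h and 10.23 in CONTROL 2 h. Plk1, the main mitotic polo-like kinase, had 8.77 in AMAP 6 h, 7.41 in AMAP 2 h, 8.96 in CONTROL 6 h and 8.42 in CONTROL 2 h. In each the AMAP 2 h array alone was low. Nusap1, a spindle protein, differed by 1.41 in AMAP and -0.12 in control. Its AMAP difference was 0.91 as the mean of its probe sets, counting a probe set below the filter. Bub1b, a spindle checkpoint kinase, differed by 1.22 in AMAP and 0.62 in control, and Kif20a, a kinesin of cytokinesis, by 1.17 in AMAP and 0.11 in control.

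Of the 43 mitosis genes 16 had 2 or more probe sets above the filter, and in 9 of them these agreed. Among genes past 2-fold, Aspm, a spindle pole protein that belongs to none of the lists, had 9.05 in AMAP 6 h, 7.20 in AMAP 2 h, 8.62 in CONTROL 6 h and 8.51 in CONTROL 2 h, and its probe sets gave 1.84 and 1.57. Kif11, the motor that separates spindle poles, was higher by 0.80 to 1.22 on 3 probe sets, with 7.44 in AMAP 6 h, 6.39 in AMAP 2 h, 7.58 in CONTROL 6 h and 7.53 in CONTROL 2 h. Tpx2, an activator of the Aurora A kinase, had 9.49 in AMAP 6 h, 8.43 in AMAP 2 h, 9.58 in CONTROL 6 h and 9.21 in CONTROL 2 h.

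DNA replication genes, transcribed earlier in the cycle, were more often lower than higher. Of 40 expressed members 10 were higher and 28 lower in AMAP, with a median of -0.15, close to control, where 7 were higher and 30 lower with a median of -0.12, and none was 2-fold apart in AMAP. Among D-type cyclins and G1 inhibitors 7 of 13 were higher and 6 lower, 2 of them (Cdkn1a and Ccnd2) 2-fold lower. Ccnd2, which drives G1 with CDK4 and CDK6, had 7.48 in AMAP 6 h, 8.67 in AMAP 2 h, 8.25 in CONTROL 6 h and 7.69 in CONTROL 2 h, and its 4 probe sets agreed in direction. Ccng2, a growth-arrest cyclin, was lower in both, by 0.92 in AMAP and 0.82 in control.

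**Figure D3:**
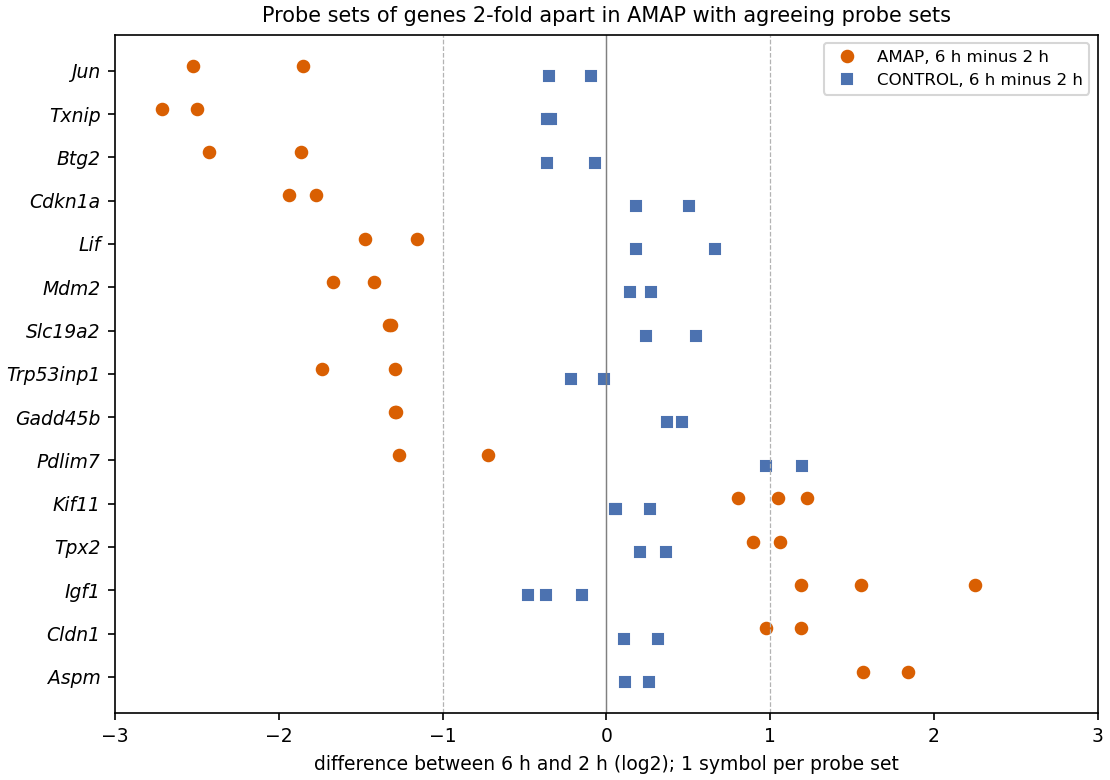
Difference between 6 h and 2 h (log2, horizontal axis) for probe sets with 1 gene symbol that were above the filter in AMAP. Shown are 15 genes that were 2-fold apart in AMAP and whose probe sets agreed, with AMAP as circles and CONTROL as squares. Genes were chosen for this agreement, so the AMAP circles of a gene lie on one side of 0 by choice. Examples are Jun at -2.52 and -1.85 and Igf1 at 1.19, 1.56 and 2.25.

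Most of the higher genes had a single probe set, so agreement could be judged for few of them. A gene was counted as agreeing when each of its probe sets above the filter differed in the same direction by at least 0.5. This held for 20 of the 21 lower genes with 2 or more such probe sets and for 5 of the 6 higher genes, while 37 lower and 42 higher genes had 1 probe set. Lower genes with 1 probe set included Atf3, Ddit3, Ppp1r15a, Egr1, Junb, Ier2, Dusp1, Gadd45a and Plk2. Higher genes with 1 included Cenpf, Ube2c and Plk1. In control it held for 7 of 8 higher genes and 3 of 12 lower genes, so the genes lower in CONTROL 6 h than in CONTROL 2 h were the least agreed. Gadd45b, a stress gene in none of the lists, had 2 probe sets that agreed and 8.18 in AMAP 6 h, 9.47 in AMAP 2 h, 8.69 in CONTROL 6 h and 8.23 in CONTROL 2 h. Pdlim7, a cytoskeletal adaptor, was 1.27 lower over time in AMAP and 0.97 higher in control.

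Hepatocyte transcription factors were mostly higher in AMAP and lower in control over the same hours, with little support from second probe sets. In AMAP 8 of 11 were higher and 2 lower, with a median of 0.42, and all 11 were lower in control, with a median of -0.53; the 8 that were higher in AMAP and lower in control compare with 21.4% of expressed genes. AMAP minus CONTROL had a median of 0.14 at 6 h and -0.52 at 2 h. Only 2 of the 11 had 2 or more probe sets above the filter in AMAP, and these agreed in 0 of them. Ppara, Foxa1 and Nr1h4, given below, were read by 1 probe set each. The median of the AMAP difference minus the control difference over these genes was 1.13, and 0.75 when members below the expression limit were counted too. Ppara, the nuclear receptor of fatty acid oxidation, had 7.94 in AMAP 6 h, 6.88 in AMAP 2 h, 6.39 in CONTROL 6 h and 6.92 in CONTROL 2 h. Foxa1, a pioneer factor of liver development, had 7.01 in AMAP 6 h, 6.06 in AMAP 2 h, 6.80 in CONTROL 6 h and 7.38 in CONTROL 2 h. Nr1h4 (FXR), the bile acid receptor, had 7.40 in AMAP 6 h, 6.71 in AMAP 2 h, 6.64 in CONTROL 6 h and 7.20 in CONTROL 2 h. Foxa1 was low in AMAP 2 h alone, Ppara was high in AMAP 6 h alone, and for Nr1h4 AMAP 6 h and CONTROL 2 h stood above the other pair.

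Liver plasma proteins had a median near 0, with 16 of 27 higher and 10 lower in AMAP and a median of 0.04, against -0.05 in control. The acute-phase gene Crp was 2-fold or more higher, at 8.05 in AMAP 6 h, 6.20 in AMAP 2 h, 6.90 in CONTROL 6 h and 7.88 in CONTROL 2 h. Serpina10, an inhibitor of coagulation proteases, had 6.42 in AMAP 6 h, 5.15 in AMAP 2 h, 5.32 in CONTROL 6 h and 5.99 in CONTROL 2 h. Slc2a2, the hepatocyte glucose transporter GLUT2, had 7.40 in AMAP 6 h, 5.43 in AMAP 2 h, 5.84 in CONTROL 6 h and 6.44 in CONTROL 2 h. In all 3 genes AMAP 6 h was the highest array and AMAP 2 h the lowest, and control was lower at 6 h. The widely expressed transporter Slc2a1 (GLUT1) ran opposite to Slc2a2, at 8.25 in AMAP 6 h, 9.00 in AMAP 2 h, 8.60 in CONTROL 6 h and 8.09 in CONTROL 2 h, and Hk2, a hexokinase of growing cells, was 0.92 lower over time in AMAP and 0.61 higher in control.

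Igf1, the hepatic insulin-like growth factor, was read by 3 probe sets. It had 7.48 in AMAP 6 h, 6.29 in AMAP 2 h, 6.92 in CONTROL 6 h and 7.07 in CONTROL 2 h, and its 3 probe sets gave 1.19, 1.56 and 2.25. Cldn1, a tight junction protein, had 6.92 in AMAP 6 h, 5.73 in AMAP 2 h, 5.93 in CONTROL 6 h and 5.82 in CONTROL 2 h, so AMAP 6 h alone was high. Its difference of 1.19 was 0.60 as the mean of all its probe sets, counting those below the filter. The probe sets above the filter gave 1.19 and 0.97. The largest positive difference of a gene with a single probe set above the filter, 2.12, was that of Clca3a2, a calcium-activated chloride channel regulator, at 7.22 in AMAP 6 h, 5.10 in AMAP 2 h, 5.51 in CONTROL 6 h and 6.12 in CONTROL 2 h. Spib and Ltb, genes best known from lymphoid cells, were also read by 1 probe set each: Spib had 6.55 in AMAP 6 h, 4.58 in AMAP 2 h, 4.48 in CONTROL 6 h and 6.00 in CONTROL 2 h. Ltb had 8.29 in AMAP 6 h, 6.41 in AMAP 2 h, 6.82 in CONTROL 6 h and 7.67 in CONTROL 2 h.

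Metabolic and protein-folding lists differed little. The medians in AMAP were 0.12 for ribosome biogenesis (31 genes, 0.36 in control), 0.04 for splicing factors (36 genes, -0.09 in control), 0.02 for ER chaperones, 0.02 for heat shock proteins, 0.02 for cholesterol synthesis (22 genes, 0.06 in control) and -0.12 for fatty acid oxidation (22 genes, -0.10 in control). Within them Xbp1, a transcription factor of the unfolded protein response, was 0.64 higher in AMAP over time, at 10.49 in AMAP 6 h, 9.85 in AMAP 2 h, 10.02 in CONTROL 6 h and 10.15 in CONTROL 2 h. Hspb1, a small heat shock protein, had 10.28 in AMAP 6 h, 11.13 in AMAP 2 h, 10.79 in CONTROL 6 h and 10.41 in CONTROL 2 h. All 10 expressed clock genes were lower in AMAP, with a median of -0.23, against 5 lower and 5 higher in control, with a median of -0.09.

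**Figure D4:**
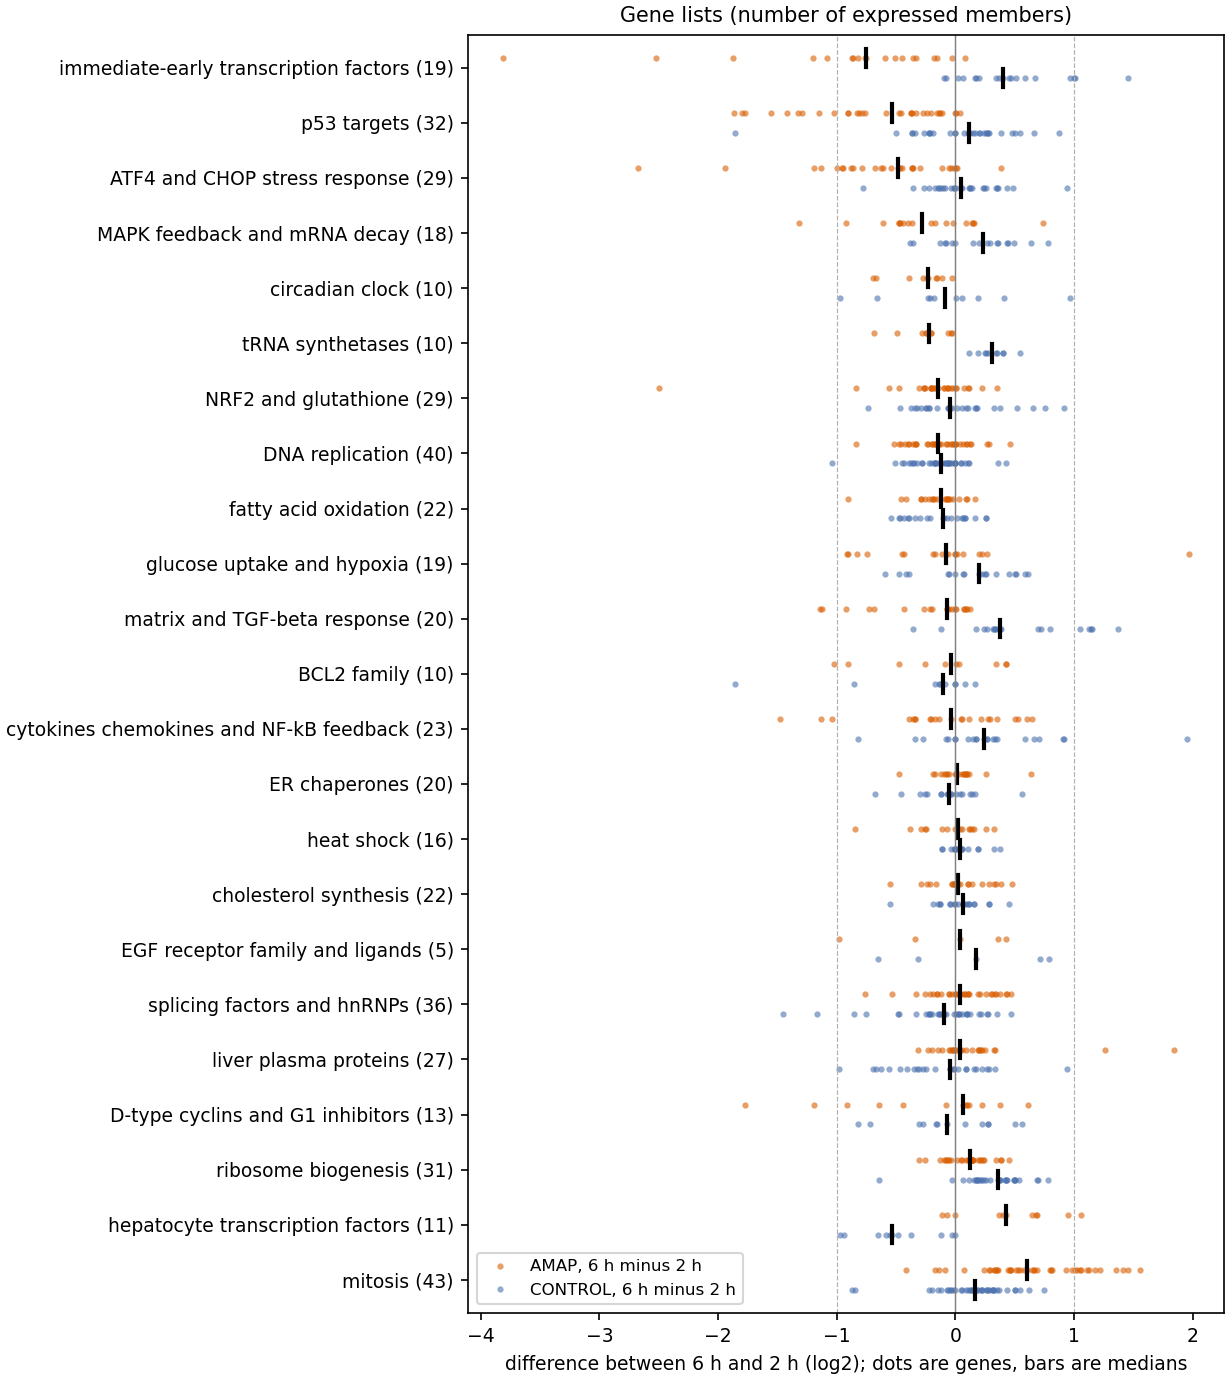
Difference between 6 h and 2 h (log2, horizontal axis) for the expressed members of 23 gene lists, 1 dot per gene, AMAP above CONTROL in each row, with bars at the medians. Immediate-early factors have the lowest AMAP median at -0.75 and mitosis genes the highest at 0.61, and hepatocyte transcription factors lie at 0.42 in AMAP and -0.53 in control.

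Taking the control difference away from the AMAP difference gave 151 of 6936 genes (2.18%) above 0 by 2-fold or more and 216 (3.11%) below 0 by that much, and probe sets agreed for 27 of 52 and 60 of 75 of those with 2 or more. This quantity rests on 4 arrays, and CONTROL 6 h weighs in it as much as AMAP 6 h. With CONTROL 24 h in place of CONTROL 6 h, an alternative chosen after seeing the data, the median of the ATF4 and CHOP list in it was -1.31, against -0.60 with CONTROL 6 h, and that of the MAP kinase feedback list -0.14, against -0.52. The immediate-early list was lower in it in all 19 members. Some large values held a large control difference on the probe set used: Phip, a bromodomain protein with 4 probe sets above the filter, had 8.54 in AMAP 6 h, 7.84 in AMAP 2 h, 6.81 in CONTROL 6 h and 8.21 in CONTROL 2 h. Its control difference of -1.40 was -0.74 as the mean of its probe sets. Cd40, a TNF receptor family member, had 7.70 in AMAP 6 h, 8.28 in AMAP 2 h, 8.20 in CONTROL 6 h and 6.57 in CONTROL 2 h. On the probe sets used, CONTROL 6 h was the lowest array in Phip and CONTROL 2 h in Cd40, while the AMAP arrays were 0.69 and 0.58 apart. On 2 other probe sets of Phip AMAP 2 h was the lowest, at 6.10 against 6.40 in CONTROL 6 h and at 6.05 against 6.29.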

How the data were processed

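The deposited table holds the authors' log2 expression values. The submitters' processing notes name RMA and Affymetrix Expression Console for them. Not given in the sources used here: the version, and whether all 9 arrays were summarised together. RMA subtracts background, equalises the arrays' distributions and summarises probes per probe set, which compresses differences at low signal. Of 22690 probe sets, 64 controls were left out, 20380 had 1 gene symbol, 691 several and 1555 none; only those with 1 symbol were used. A gene was read by its probe set with the highest mean over all 9 arrays. Genes were counted if either array of the difference was above 5.66, the median of all values. Lists were described over the 6700 genes whose mean over all 9 arrays was at least 5.67. A 2-fold size was used in place of a test, since each group had 1 array. Genes were named by a rule: the largest differences with agreeing probe sets or a single probe set, up to 6 members per list, the largest differences in control and between AMAP and control, and 8 genes chosen by name. Genes named only as exceptions, as members of a count or for a promoter motif, and the cell type markers, were named after their values were seen. Members and lists were chosen with earlier results of these data known. Python 3.11.15, pandas 2.3.3, R 4.3.3 and limma 3.58.1 were used, and the counting was tested on simulated data. Alternatives were a 1.5-fold size, no filter, the mean of all probe sets, cyclic loess, quantile normalisation over 4 arrays, median centring and other limits for agreement. Some list genes were not analysed here.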

Additional observations from a re-analysis of the deposited data

Results flagged for a closer look

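In 13 of 23 gene lists the AMAP median and the control median of the 6 h minus 2 h difference lay on opposite sides of 0, and in 4 of them both medians were at least 0.2 from 0. The difference between the medians was not tested, since each group had 1 array. For immediate-early transcription factors the AMAP median was -0.75 and the control median 0.41, a difference of -1.16. For MAP kinase feedback and mRNA decay genes they were -0.28 and 0.23, a difference of -0.51. For tRNA synthetases they were -0.22 and 0.31, a difference of -0.54. For hepatocyte transcription factors they were 0.42 and -0.53, a difference of 0.95. Values of the single genes are given with each list above, and the part of CONTROL 6 h in these differences was not tested.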

How the results depend on the processing

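No paired analysis was possible because each group had 1 array and the labels give no replicate numbers, and for the same reason no array could be left out. List medians were judged against a shift of 0.253, the robust SD of control differences over expressed genes, and counts against 1.5 times the count. Of 414 such values 391 stayed within these limits. A reversal was counted only for a median of at least 0.253 in size. A smaller median, such as -0.12 for fatty acid oxidation in AMAP, could change sign and stay within the limits, so its direction was not judged. At 1.5-fold the counts were 212 higher and 240 lower in AMAP, 254 and 185 in control and 530 and 777 for the AMAP minus control difference. Median centring left 22 genes higher in control. Without the filter the hepatocyte factor median of the difference was 0.75, against 1.13 with it. Genes with agreeing probe sets numbered 16 in AMAP, 6 in control and 52 for the difference when 1 log2 was asked, and 17 in control when any amount was. With CONTROL 24 h in place of CONTROL 6 h, chosen after seeing the data, control had 52 genes higher and 7 lower, and medians of the difference were -0.14 for MAP kinase feedback (-0.52 with CONTROL 6 h), 0.36 for EGF receptor genes (-0.14), -1.31 for ATF4 and CHOP (-0.60), -0.74 for tRNA synthetases (-0.47), -0.40 for matrix (-0.66), 0.79 for mitosis (0.53), 0.21 for ribosome biogenesis (-0.25), 0.69 for hepatocyte factors (1.13) and -0.57 for clock genes (-0.25), so that EGF receptor and ribosome biogenesis genes changed sign. With the mean of all probe sets Hadhb reversed to 0.13 in AMAP, against -0.41, and the difference reversed to 1.17 for Hadhb, -0.31 for Bcl2l11, 0.17 for Lss and -0.012 for Nr1d2; the causes were not tested. Low signal limits genes near the filter, whose differences RMA compresses.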
